A study of Mus musculus with 7 samples.

Results

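Opposite-strand transcripts are genes named after the gene on the other DNA strand that they overlap or lie beside, such as Grin1os beside Grin1. The rows counted here were those described as opposite strand in the deposited annotation and selected on a mean raw count of 20 or more over the 7 libraries. This gave 106 of 226 such rows, among 46333 genes in all. The other 120 rows lay below the mean, and 45 of those had no count in any library. The mean was taken over both genotypes together, and 99 of the 106 transcripts reached it in each genotype, 4 in cre- alone and 3 in cre+ alone. Just above the threshold stood Appbp2os (mean 20), Lrrc75aos1 (20.1) and Kank4os (20.4), and just below it Aknaos (17.0), Dhrs13os (16.7) and Far1os (15).

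The libraries came from neurons that were enriched from whole brains of adult female littermate mice by magnetic removal of microglia, oligodendrocytes and astrocytes. All mice carried Il4ra alleles flanked by the sites that Cre recombinase acts on (il4ra fl/fl, "IL-4R fl/fl" in the labels). The 3 cre+ libraries came from mice that also carried Syn cre, in which the neuronal synapsin 1 promoter drives the Cre, and the 4 cre- libraries from mice without it. The comparison asks how transcripts differ when neurons lack the alpha chain of the interleukin-4 receptor. A neuron-driven Cre leaves Il4ra intact in other cell types. The paper names depletion antibodies against microglia, oligodendrocytes and astrocytes, and names none against vascular or meningeal cells. It also assessed purity by flow cytometry, with endothelial cells among the stained types, and reports highly enriched neurons. Il4ra itself was at 29.5, 28.7 and 24.4 CPM (the count over the library's total in units of 1e+06, scaled with TMM factors) in cre+ and at 20.03, 23.2, 29.6 and 22.4 CPM in cre-, and this whole-gene count includes exons outside the deleted ones, so that it does not check the labels.

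Most transcripts of this kind are long noncoding RNAs that are spliced and polyadenylated like mRNAs but translated into no known protein. Some start from the same open promoter region as their sense gene and run away from it, others cross its exons or introns, and a few are known to act on the neighbouring gene or on other RNAs. In the brain the best known is Dlx6os1, also called Evf2, which is transcribed in inhibitory forebrain neurons beside the homeobox genes Dlx5 and Dlx6.

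By GENCODE M39, the same genome build (GRCm39) as the files, 94 of the 106 were long noncoding RNAs, 1 was a gene still to be experimentally tested (Dlx6os2) and 1 a pseudogene (Abhd11os). The remaining 10 were protein coding, so the word noncoding did not hold for them. They included Slc7a6os, Wdr83os, Cebpzos, Pigbos1 and Ccpg1os. A sense gene could be named for 105 transcripts, with 103 distinct sense genes, and 104 pairs could be placed. In 39 pairs the starts of the genes overlapped, in 25 the transcript lay inside the sense gene, in 18 the genes stood head to head without touching, in 12 the ends overlapped, in 5 they stood tail to tail and in 5 the sense gene lay inside the transcript. The median exonic length was 1412 bases, and 4 transcripts had a single exon. In canonical transcripts, 59 shared bases with exons of the sense gene and 46 did not, and 73 shared bases with exons of any gene on the other strand. The library kit that the study names, NEBNext Ultra II RNA, is not stated to keep the strand. No use of strand in counting is given in the sources used here. Unless strand was used, reads over shared exonic bases cannot be assigned to one gene of a pair, and the shared percentage is given beside the results that turn on it. Reads from introns of a sense gene could then also be counted for any transcript with exons over those introns. The spans overlap in 81 pairs, some with no shared exonic base, and these percentages do not cover such reads.

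Stretches of sequence just before the annotated 5′ ends are shown for 4 transcripts, because they show how unlike the start regions of transcripts with low p-values were. They were read from GRCm39 on the transcript's strand, 5′ to 3′, end at the base before the annotated start except for Dlx6os1, where the exon of another gene on that strand covers the next base, and contain no annotated exon. Capitals mark matches on either strand to the GC box GGGCGG (reverse CCGCCC) or to the homeodomain core TAATTA, and TATAAA was searched as well.
Prdm16os (chr4:154721881-154722032, plus strand): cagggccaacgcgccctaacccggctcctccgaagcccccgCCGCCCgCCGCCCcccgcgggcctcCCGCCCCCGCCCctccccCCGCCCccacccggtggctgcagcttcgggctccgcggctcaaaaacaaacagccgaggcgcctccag
Phf2os1 (chr13:49023792-49024091, plus strand): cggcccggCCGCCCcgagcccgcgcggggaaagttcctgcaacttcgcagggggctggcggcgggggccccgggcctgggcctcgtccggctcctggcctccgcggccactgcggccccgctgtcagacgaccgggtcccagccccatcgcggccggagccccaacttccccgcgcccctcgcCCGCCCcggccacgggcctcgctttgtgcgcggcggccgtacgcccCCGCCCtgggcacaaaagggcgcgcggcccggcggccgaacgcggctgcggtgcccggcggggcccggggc
Dlx6os1 (chr6:6871634-6871933, minus strand): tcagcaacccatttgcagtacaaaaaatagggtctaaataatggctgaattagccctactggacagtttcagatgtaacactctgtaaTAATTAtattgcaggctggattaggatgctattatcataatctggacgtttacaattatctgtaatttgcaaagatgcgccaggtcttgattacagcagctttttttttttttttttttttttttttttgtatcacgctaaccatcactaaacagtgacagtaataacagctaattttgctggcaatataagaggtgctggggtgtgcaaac
Ttc39aos1 (chr4:109263431-109263730, minus strand): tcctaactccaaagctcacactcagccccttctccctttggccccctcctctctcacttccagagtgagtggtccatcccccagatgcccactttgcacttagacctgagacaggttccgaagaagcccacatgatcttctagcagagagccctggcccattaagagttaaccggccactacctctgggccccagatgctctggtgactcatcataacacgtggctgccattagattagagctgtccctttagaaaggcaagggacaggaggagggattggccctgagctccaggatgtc
The 152 bases before Prdm16os were 78.9% G and C with 19 CpG dinucleotides, and the 300 bases before Phf2os1 were 82.0% G and C with 47. Both held GC boxes. The stretches before Dlx6os1 and Ttc39aos1 each had 3 CpG dinucleotides, and that before Dlx6os1 held the TAATTA letters and was 35.3% G and C. Over the 300 bases before every one of the 106 starts, the GC box was present in 34.9%, against 21.7% of 54654 such windows of lncRNA and protein-coding genes. TATAAA was present in 5.66% against 15.6%, and TAATTA in 5.66% against 7.35%. The 54654 windows were not selected on counts as the 106 were, so these sets are unlike. These are matches of letters, not binding sites.

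The transcripts took 0.0492 to 0.0569% of all counts in the cre+ libraries and 0.0642 to 0.0811% in the cre- libraries, from totals of 68213223 to 94376841 counts. Their summed level was 524, 584 and 592 CPM in cre+ and 654, 756, 727 and 688 CPM in cre-, so that the genotypes did not overlap. Dlx6os1 alone gave 23.9 to 37.1% of these counts. Without it the sums were 399, 389 and 383 CPM in cre+ and 428, 508, 457 and 439.9 CPM in cre-, again with every cre- library above every cre+ library. Markers of some other cell types moved with genotype in the same libraries. The 10 endothelial markers summed to 12151 to 17926 CPM in cre+ and 7557 to 10888 CPM in cre-, with 9 of 10 higher by DESeq2 (adjusted p under 0.05). Also higher were 6 of 10 mural, 4 of 8 astrocyte and 4 of 8 meningeal fibroblast markers. Fewer were higher among oligodendrocyte (2 of 8) and ependymal markers (1 of 6), and none among 8 microglia and 6 choroid plexus markers. The sums of oligodendrocyte, microglia and choroid plexus markers overlapped between genotypes. The 11 neuron markers summed to 1067 to 2110 CPM in cre+ and 2000.3 to 3455 CPM in cre-, with 5 of 11 lower, and of the 10 markers of inhibitory forebrain neurons 6 were lower. No marker on these lists was at 0. In bulk RNA, fewer cells of a type and less RNA per cell cannot be told apart, and the part of cell composition in the values below was not tested. A fit with vascular markers as a covariate is given below, but these markers differed with genotype.

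**Figure D1:**
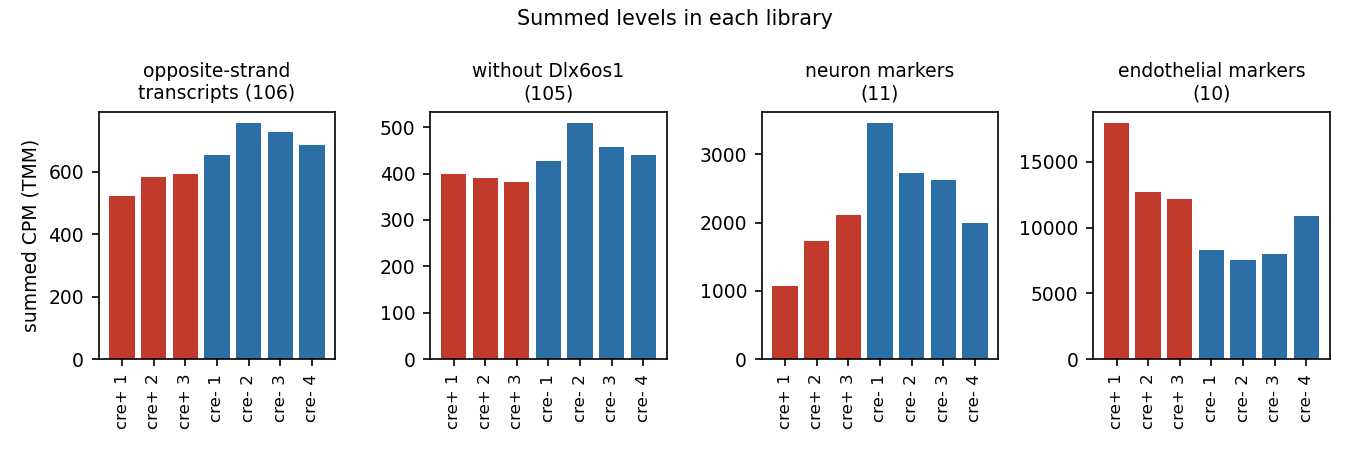
Bars give the summed level (CPM) in each of the 7 libraries for the 106 opposite-strand transcripts, for the 105 without Dlx6os1, for 11 neuron markers and for 10 endothelial markers, on separate axes that start at 0. The transcripts sum to 524 to 592 CPM in cre+ (red) and 654 to 756 CPM in cre- (blue), the endothelial markers run the other way, and cre+ replicate 1 has the lowest neuron and highest endothelial sum.

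Levels of the transcripts were lower in cre+ neurons more often than higher, but no single transcript passed the main test. Of 106, 79 had a negative log2 fold change (cre+ over cre-) and 27 a positive one, which is 74.5% negative against 54.0% of all 21542 genes tested. The median log2 fold change was -0.38, against -0.04 over all genes tested and -0.03 over 102 sense genes. The range ran from -2.18 to 1.26. The quasi-likelihood test of edgeR called none at an adjusted p under 0.05 (lowest 0.0939), and it called none of all genes either (0%). limma-voom also called none. At an unadjusted p under 0.05, edgeR had 12 transcripts lower (11.3%, against 9.75% of all genes) and 1 higher (0.943%, against 10.2%). The share at a low p in the lower direction was thus near that of all genes, and that in the higher direction was below it. DESeq2, the test named in the study's methods, called 6 lower (5.66%, against 3.04% of all genes) and 1 higher (0.943%, against 3.72%). The 6 were Zfhx2os, Grin1os, Phf2os1, Junos, Prox1os and Frs3os, and the 1 was Prdm16os. The DESeq2 percentages of all genes are over 29430 genes, which were not selected on counts as the 106 were and include genes with few counts. These sets are unlike, so an excess of lower calls cannot be read from these percentages. With library totals in place of size factors, which moved the DESeq2 median of all genes from -0.08 to -0.20, DESeq2 called 11 lower and none higher. Over all genes that setting called 1773 lower and 525 higher of 29432, against 895 and 1095 of 29430 with size factors. DESeq2 gave no adjusted p for 34 transcripts with low counts. In 17 transcripts all cre+ libraries lay below all cre- libraries (16.0%, against 9.72% of all genes), and in 1, Snhg7os, all lay above (0.943%, against 8.94%).

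The same tendency was found in other long noncoding RNAs. Over 1715 other lncRNA genes with a mean count of 20 or more, the median log2 fold change was -0.37 and 71.4% were negative. Of these, 13.4% were lower in all cre+ libraries and 4.08% were called lower by DESeq2, and a difference between these and the opposite-strand transcripts was not tested. Among all genes with mean counts from 20 to 100 the median was -0.33, against -0.38 for the 50 opposite-strand transcripts in that range. Between 100 and 1000 counts the medians were -0.13 for all genes and -0.46 for 45 transcripts, and above 1000 counts 0.04 for all genes and -0.03 for 11. The 10 protein-coding members had a median of 0.06, with 6 positive, and the 96 others a median of -0.41, with 75 negative. When the fit also held a vascular term, the mean log2 CPM of endothelial plus mural markers, the median of the 106 was -0.30, 69 were negative, and DESeq2 called 1 lower (Prox1os, -3.08, adjusted p = 0.0173) and none higher. Over all genes DESeq2 called 91 lower and 49 higher of 29539 with the term. The 7 transcripts that DESeq2 called without the term kept their direction with it. The endothelial mean log2 CPM in the term ran from 9.90 to 10.46 in cre+ and from 9.24 to 9.76 in cre-, without overlap. The mural mean overlapped, at 4.32 to 5.40 in cre+ and 3.70 to 4.62 in cre-. The term as a whole was higher in every cre+ library than in any cre- library. With 7 libraries the fit therefore cannot part the term from genotype, and neither lost calls nor kept directions show the part of composition.

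**Figure D2:**
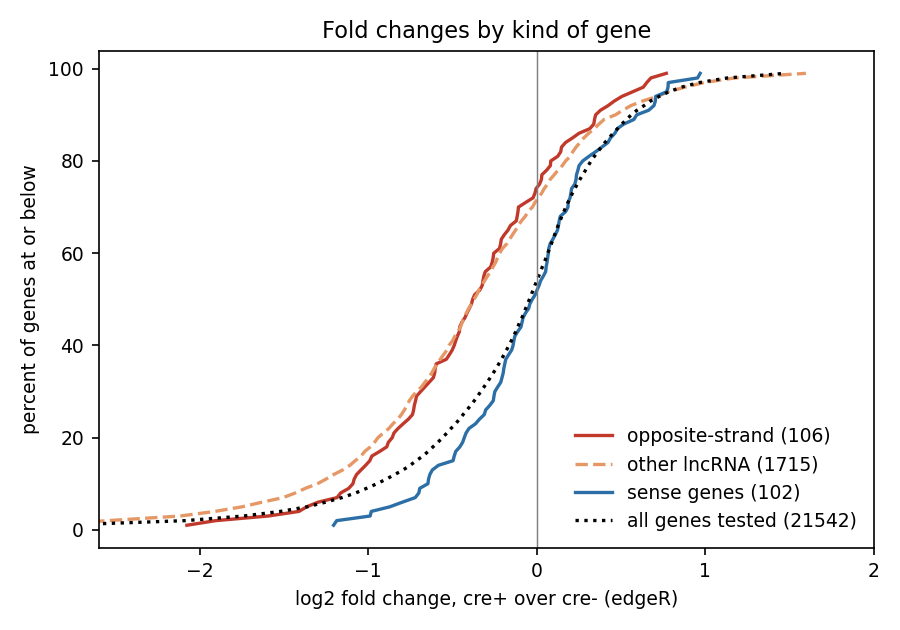
Lines give the percent of genes (vertical axis) at or below a log2 fold change of cre+ over cre- from edgeR (horizontal axis), from the 1st to the 99th percentile, for the 106 opposite-strand transcripts, 1715 other lncRNA genes, 102 sense genes and all 21542 genes tested. The lines of the opposite-strand transcripts (median -0.38) and of other lncRNAs (-0.37) run together to the left of those of the sense genes (-0.03) and of all genes (-0.04).

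Beside genes of neuronal function, Grin1os and Zfhx2os fell by the DESeq2 test together with their sense genes. Grin1os (chromosome 2, 25181232 to 25188937, plus strand) lies inside Grin1, which encodes the obligatory subunit of NMDA-type glutamate receptors. It was at 5.36, 6.90 and 10.2 CPM in cre+ and 19.8, 25.4, 23.1 and 11.9 CPM in cre-, with means of 7.49 ± 2.48 (SD, n = 3) and 20.1 ± 5.89 (SD, n = 4). All cre+ libraries lay below all cre- libraries. The edgeR log2 fold change was -1.42 (SE 0.31, adjusted p = 0.0939), and the DESeq2 adjusted p was 5.97e-04. Grin1 itself was at 34.8, 70.8 and 89.0 CPM in cre+ and 183, 169.8, 156 and 83.9 CPM in cre-, overlapping by 1 library, and had a log2 fold change of -1.19 (SE 0.35, DESeq2 adjusted p = 0.0101). Of the exonic bases of Grin1os, 45.2% lie over Grin1 exons. There were 15.4, 9.75 and 11.5 Grin1os counts per 100 Grin1 counts in cre+ and 10.8, 14.96, 14.9 and 14.2 in cre-, and these ranges overlap. The summed neuron markers were lowest in the same libraries as Grin1os within each genotype, cre+ replicate 1 at 1067 CPM and cre- replicate 4 at 2000.3 CPM, and their part in the result was not tested.

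Zfhx2os (chromosome 14, 55291326 to 55313330, plus strand) overlaps the end of Zfhx2, a gene for a large homeodomain and zinc-finger protein of neurons. No exonic base of its canonical transcript lies over Zfhx2 exons. Its level was 8.13, 7.21 and 12.03 CPM in cre+ and 17.2, 26.5, 18.5 and 15.4 CPM in cre-, with no overlap, and the log2 fold change was -1.09 (SE 0.25, edgeR adjusted p = 0.0963, DESeq2 adjusted p = 0.00212). Zfhx2 was also lower in every cre+ library, at 43.4, 49.1 and 63.2 against 75.8, 97.5, 88.6 and 75.4 CPM (log2 fold change -0.70, SE 0.15, DESeq2 adjusted p = 0.00310). Per 100 Zfhx2 counts there were 18.7, 14.7 and 19.0 Zfhx2os counts in cre+ and 22.6, 27.2, 20.9 and 20.4 in cre-, and these ranges did not overlap either. Both Grin1os and Zfhx2os, together with Junos, were called lower by DESeq2 in each of the 7 fits that left out 1 library, with adjusted p-values of up to 0.0117, 0.0345 and 0.0276. With the vascular covariate none of these 3 was called, while their DESeq2 log2 fold changes were -1.60 (without it -1.41), -1.60 (-1.08) and -0.81 (-0.84).

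Kirrel3os, Chn1os3 and Kcnmb4os2 lie within or beside genes of synapse formation, of Rac signaling in axons and of potassium channel regulation. Kirrel3os was at 1.10, 1.99 and 1.602 CPM in cre+ and 1.76, 4.14, 4.14 and 2.76 CPM in cre-, overlapping by 1 cre- library, with a log2 fold change of -1.03 (SE 0.39, edgeR adjusted p = 0.199). DESeq2 called it with library totals (adjusted p = 0.0495) and without cre- replicate 1 (0.0199), and with the vascular covariate gave -0.12 against -1.03. It shares no exonic base with Kirrel3, an adhesion molecule of synapses, which had a log2 fold change of -0.65 (SE 0.17, DESeq2 adjusted p = 0.0171). Chn1os3 was the transcript with the most negative fold change of all 106, at 0.136, 0.420 and 0.256 CPM in cre+ and 1.04, 2.25, 0.626 and 1.01 CPM in cre- (-2.18, SE 0.63, edgeR adjusted p = 0.126). DESeq2 gave it no adjusted p with the standard settings and called it with library totals (adjusted p = 0.00865), with no filter (0.0202), with the replicate block (0.0463) and without cre+ replicate 2 (0.0130). Its groups did not overlap, while those of its sense gene Chn1, a Rac GTPase-activating protein, did (-0.99, SE 0.48). Kcnmb4os2 ranged from 0.325 to 2.56 CPM in cre+ and from 1.47 to 5.31 CPM in cre- (-1.37, SE 0.77), and it passed no test with all 7 libraries. Of its exonic bases, 43.5% lie over Kcnmb4 exons, and of those of Chn1os3, 8.13% over Chn1 exons. Without cre+ replicate 3, where Kcnmb4os2 was highest in cre+, DESeq2 gave it a log2 fold change of -2.88 with an adjusted p of 3.09e-04, and it gave -0.89 without cre- replicate 1 (adjusted p = 0.474), against -1.37 with all libraries.

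Prox1os (chromosome 1, 189902493 to 189949473, plus strand) overlaps the start of Prox1, a homeobox gene of dentate granule cells, interneurons and lymphatic endothelium, and 9.01% of its exonic bases lie over Prox1 exons. It was at 0.859, 0.353 and 0.754 CPM in cre+ and 3.02, 1.93, 1.78 and 1.38 CPM in cre-, without overlap. The log2 fold change was -1.62 (SE 0.46, edgeR adjusted p = 0.118, DESeq2 adjusted p = 0.0108). Leaving out cre+ replicate 2 (adjusted p = 0.0755) or cre- replicate 1 (0.0648) ended the DESeq2 call, and with cre- replicate 2 left out no adjusted p was given. Prox1 had a log2 fold change of -0.50 (SE 0.18, DESeq2 adjusted p = 0.0876) and was also lower in every cre+ library. Its levels were 30.0, 44.1 and 53.5 CPM in cre+ and 66.1, 57.1, 60.1 and 56.8 CPM in cre-. Per 100 Prox1 counts there were 2.87, 0.799 and 1.41 Prox1os counts in cre+ and 4.56, 3.37, 2.96 and 2.43 in cre-, and these ranges overlap.

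**Figure D3:**
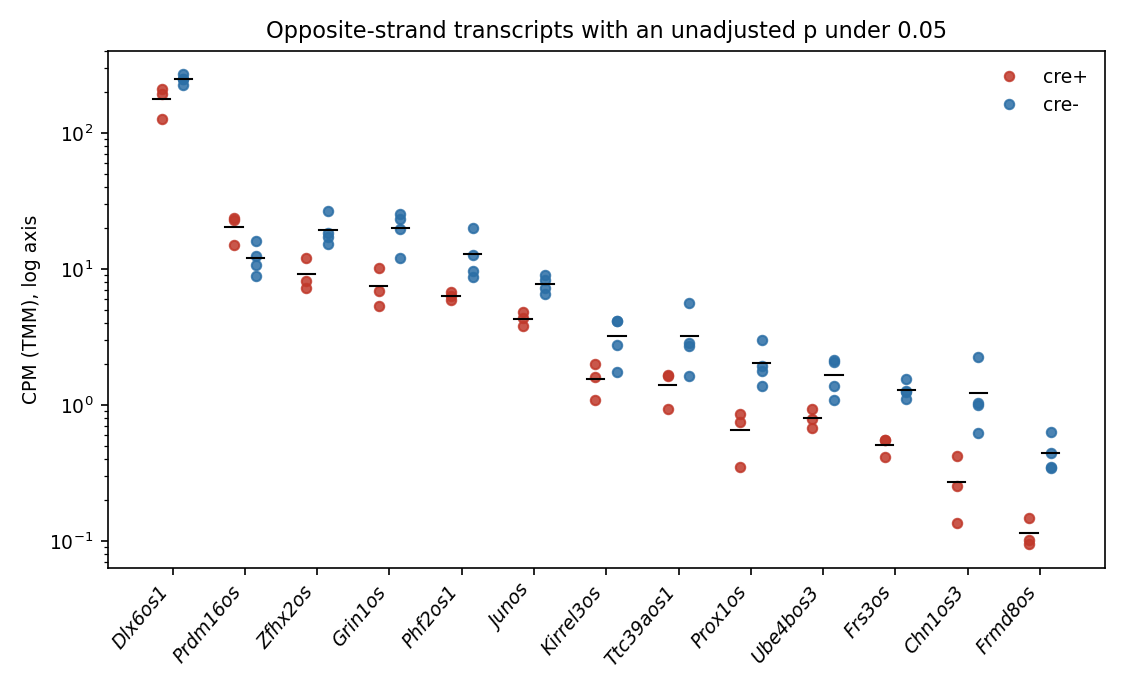
Points give the level (CPM, log axis) in each of 3 cre+ (red) and 4 cre- (blue) libraries for the 13 transcripts with an unadjusted edgeR p under 0.05, and black lines the group means. Of these, 12 are lower in cre+, with Grin1os at 7.49 against 20.1 CPM, and Prdm16os is higher, and none passed adjustment over all genes in edgeR.

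Phf2os1, Junos and Frs3os fell by the DESeq2 test beside sense genes that it did not call. Phf2os1 (chromosome 13, 49024588 to 49028936, plus strand) starts in the files 7 bases from the start of Phf2, which encodes a histone demethylase, and GENCODE M39 places its start further inside Phf2, after the G and C rich stretch shown above. Of its exonic bases, 5.37% lie over Phf2 exons. It was at 6.78, 5.93 and 6.34 CPM in cre+ and 8.74, 20.2, 12.6 and 9.61 CPM in cre-, without overlap (-1.01, SE 0.30, edgeR adjusted p = 0.130, DESeq2 adjusted p = 0.0185). Phf2 had 149, 118 and 137 CPM in cre+ and 117, 116, 119 and 123 CPM in cre- (0.18, SE 0.10). Per 100 Phf2 counts, 4.56, 5.02 and 4.62 Phf2os1 counts were found in cre+ and 7.49, 17.4, 10.5 and 7.84 in cre-, so that the relative level differed without overlap. Its DESeq2 call was lost without cre+ replicate 1, 2 or 3 (adjusted p = 0.0582, 0.105 and 0.0634) and without cre- replicate 3 (0.0616).

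Junos (chromosome 4, 94939771 to 95055555, plus strand) overlaps the start of Jun, an AP-1 transcription factor gene that responds quickly to stimulation, and its canonical transcript shares no exonic base with it. It was at 4.80, 4.34 and 3.80 CPM in cre+ and 7.26, 8.97, 8.26 and 6.59 CPM in cre- (-0.85, SE 0.21, edgeR adjusted p = 0.0988, DESeq2 adjusted p = 0.00156), without overlap. Jun ranged from 380.1 to 796 CPM in cre+ and from 220.2 to 485 CPM in cre-, with a log2 fold change of 0.58 (SE 0.32, DESeq2 adjusted p = 0.205). There were 1.26, 1.12 and 0.477 Junos counts per 100 Jun counts in cre+ and 3.29, 2.62, 1.70 and 1.92 in cre-. Frs3os lies inside Frs3, an adaptor of fibroblast growth factor receptors, with 24.0% of its exonic bases over Frs3 exons. It was at 0.554, 0.556 and 0.417 CPM in cre+ and 1.11, 1.56, 1.27 and 1.26 CPM in cre- (-1.35, SE 0.38, DESeq2 adjusted p = 0.00632), also without overlap, while Frs3, also without overlap, was at -0.21 (SE 0.12, DESeq2 adjusted p = 0.217). Per 100 Frs3 counts there were 3.29, 3.45 and 2.42 Frs3os counts in cre+ and 5.86, 8.52, 6.10 and 6.47 in cre-, without overlap. Leaving out libraries 1 at a time, Frs3os was called without cre+ replicate 2 only, with adjusted p-values of 0.0712 and 0.0664 without cre+ replicates 1 and 3 and none given without any of the 4 cre- replicates. With the replicate block its adjusted p was 0.203.

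Ube4bos3, Ttc39aos1 and Frmd8os had unadjusted edgeR p-values under 0.05 in the lower direction and no adjusted call with all 7 libraries and the standard factors. Ube4bos3, within the ubiquitin ligase gene Ube4b and with 9.52% of its exonic bases over Ube4b exons, was at 0.791, 0.678 and 0.929 CPM in cre+ and 1.09, 2.14, 1.38 and 2.08 CPM in cre- (-1.06, SE 0.39), and Ube4b had a log2 fold change of -0.09 (SE 0.10). Ttc39aos1, which stands head to head with Ttc39a, was at 0.938, 1.67 and 1.63 CPM in cre+ and 1.64, 5.62, 2.70 and 2.87 CPM in cre- (-1.19, SE 0.46), and Ttc39a had a log2 fold change of 0.14 (SE 0.32). Frmd8os had only 0.115 CPM on average in cre+ and 0.444 CPM in cre- (-1.94, SE 0.76), and 64.0% of its exonic bases lie over Frmd8 exons. DESeq2 called Ube4bos3 with library totals (adjusted p = 0.0348) and without cre- replicate 1 (0.0412). It called Ttc39aos1 with cre- replicate 1 left out (0.0283), and with cre- replicate 2, its highest library, left out the DESeq2 log2 fold change was -0.77 (adjusted p = 0.273) against -1.18 with all libraries. The edgeR adjusted p-values of the 3 transcripts were 0.189, 0.203 and 0.207.

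**Figure D4:**
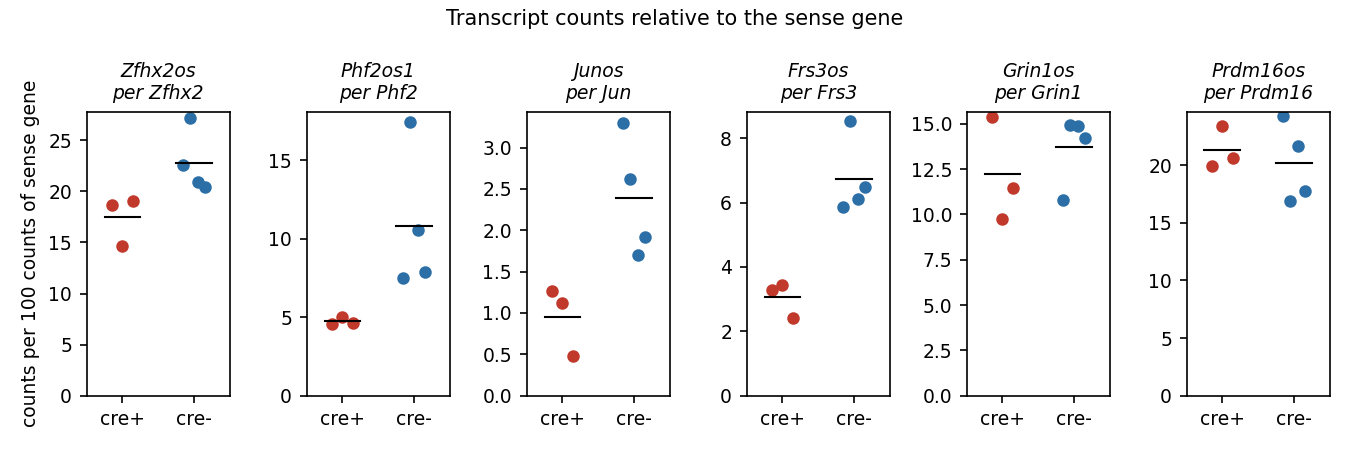
Points give counts of the transcript per 100 counts of its sense gene in each cre+ (red) and cre- (blue) library, and lines the group means, on separate axes from 0. The cre+ values lie below all cre- values for Zfhx2os, Phf2os1, Junos and Frs3os, and overlap for Grin1os and Prdm16os, whose sense genes moved with them.

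Prdm16os was the only transcript called higher by DESeq2. It runs head to head with Prdm16, a gene for a zinc-finger transcription factor of neural stem cells, ependymal cells and arterial endothelium, and the G and C rich stretch shown above lies between the starts of the 2 genes. Prdm16os (chromosome 4, 154722033 to 154729181, plus strand) was at 23.5, 23.1 and 14.9 CPM in cre+ and 16.0, 8.85, 10.7 and 12.4 CPM in cre-, with means of 20.5 ± 4.84 (SD, n = 3) and 11.98 ± 3.06 (SD, n = 4). Cre+ replicate 3 lay below cre- replicate 1, so the groups overlapped. The log2 fold change was 0.77 (SE 0.24, edgeR adjusted p = 0.141, DESeq2 adjusted p = 0.0342). Prdm16 was higher in every cre+ library, at 118, 98.3 and 72.4 against 65.9, 52.4, 49.1 and 69.9 CPM (0.70, SE 0.19, DESeq2 adjusted p = 0.0179). The pair shares no exonic base, and its ratio of 19.9, 23.4 and 20.6 counts per 100 in cre+ overlapped that of 24.3, 16.9, 21.7 and 17.7 in cre-. The endothelial markers were at 12151 CPM or more in the same 3 libraries, and with the vascular covariate the DESeq2 log2 fold change of Prdm16os was 0.76 (adjusted p = 0.792) against 0.78 without it. The DESeq2 call held with cre+ replicate 3 or cre- replicate 1 left out, and was lost without cre+ replicate 1 (adjusted p = 0.185), cre+ replicate 2 (0.190), cre- replicate 2 (0.123), cre- replicate 3 (0.123) or cre- replicate 4 (0.0531), with library totals in place of size factors (0.0522) with no filter on low counts (0.0563) and with the replicate block (0.0535).

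Of the other positive changes none passed a test with all 7 libraries. Snhg7os was at 0.972, 2.20 and 0.969 CPM in cre+ and 0.839, 0.261, 0.292 and 0.908 CPM in cre- (1.26, SE 0.60, edgeR adjusted p = 0.284). It had the most positive fold change of the 106, with 5.01% of its exonic bases over Snhg7 exons, while Snhg7, a host gene of small nucleolar RNAs, had a log2 fold change of -0.46 (SE 0.22). Ccpg1os, a protein-coding member beside the endoplasmic reticulum autophagy receptor gene Ccpg1, was at 7.27, 5.97 and 3.32 CPM in cre+ and 3.76, 2.80, 4.41 and 3.16 CPM in cre- (0.64, SE 0.31), and DESeq2 called it without cre+ replicate 3 (adjusted p = 0.0302) and gave 0.40 without cre+ replicate 1 (adjusted p = 0.629), against 0.66 with all libraries. Frmpd1os had a log2 fold change of 0.59 (SE 0.53) with overlapping groups.

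Dlx6os1 (chromosome 6, 6820189 to 6871592, minus strand) was by far the most abundant transcript for its length, at 86.2 CPM per 1000 exonic bases, followed by Wdr83os at 30.1. It was at 125, 194 and 209.6 CPM in cre+ and 226, 248, 269 and 248 CPM in cre-, with means of 176 ± 44.9 (SD, n = 3) and 248 ± 17.6 (SD, n = 4). The groups did not overlap, and cre+ replicate 1 was the lowest. The log2 fold change was -0.49 (SE 0.17, edgeR adjusted p = 0.178, DESeq2 adjusted p = 0.0697). DESeq2 called it with library totals (adjusted p = 0.0300) and without cre+ replicate 3 (0.0314), and leaving out cre+ replicate 1 gave a DESeq2 log2 fold change of -0.29 (adjusted p = 0.180). With the vascular covariate the DESeq2 log2 fold change was -0.20 (adjusted p = 0.938), against -0.48 without it. Dlx6, the homeobox gene within it, was at 5.87, 5.55 and 6.89 CPM in cre+ and 8.98, 13.9, 11.7 and 10.3 CPM in cre- (-0.88, SE 0.20, DESeq2 adjusted p = 0.00173). Per exonic base Dlx6os1 was 24.5 times the level of Dlx6, and no exonic base is shared. Dlx6os2, a short gene inside Dlx6 with 7.68% of its bases over Dlx6 exons, was at 1.12, 2.28 and 1.98 CPM in cre+ and 2.23, 4.83, 2.45 and 3.68 CPM in cre- (-0.88, SE 0.39). The markers of inhibitory forebrain neurons, among them Dlx6, summed to 1018 to 1401 CPM in cre+ and 1453 to 1921 CPM in cre-.

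Transcripts beside other forebrain transcription factors showed no change that passed a test. Six3os1 was at 2.88, 6.98 and 4.93 CPM in cre+ and 4.27, 3.30, 4.16 and 3.82 CPM in cre- (0.34, SE 0.31), beside Six3, a gene of ventral forebrain and eye development, at -0.14 (SE 0.32). Otx2os1 had a log2 fold change of 0.35 (SE 0.41), beside Otx2, a homeobox gene that is expressed in the choroid plexus, at 0.70 (SE 0.25, DESeq2 adjusted p = 0.0666). Emx2os had a log2 fold change of -0.61 (SE 0.53) and its sense gene Emx2, of the dorsal forebrain, one of -0.05 (SE 0.24). For Six3os1, cre+ replicates 2 and 3 lay above all cre- libraries and cre+ replicate 1 below all of them.

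Among the other most abundant transcripts, none passed a test, and 4 of the 5 named here had log2 fold changes within 0.1 of 0. Oip5os1, known as Cyrano, a conserved RNA that binds the microRNA miR-7, was at 37.9, 39.5 and 35.0 CPM in cre+ and 40.4, 35.3, 34.4 and 36.8 CPM in cre- (0.03, SE 0.10, and -0.085 with library totals). Brip1os, which starts 177 bases from the DNA helicase gene Brip1, ranged from 28.8 to 35.5 CPM in cre+ and from 29.7 to 37.9 CPM in cre- (-0.03, SE 0.13), and per exonic base was 25.4 times the level of Brip1. Wdr83os, which encodes a protein of membrane insertion at the endoplasmic reticulum, had a log2 fold change of 0.03 (SE 0.15, and -0.085 with library totals), and Slc7a6os, whose protein brings RNA polymerase II into the nucleus, one of -0.30 (SE 0.16, edgeR adjusted p = 0.324). Foxl2os, which starts 11 bases from the start of Foxl2, had a log2 fold change of 0.06 (SE 0.28, and -0.072 with library totals) and Foxl2 one of 0.43 (SE 0.19). The standard errors of these 5 transcripts, 0.10 to 0.28, were under the median of 0.46 over all 106.

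At the other end, 40 of the 106 were below 1 CPM on average and 10 had no count in at least 1 library. Appbp2os was at 0, 0.597 and 0.390 CPM in cre+ and 0.238, 0, 0.209 and 0.386 CPM in cre- (0.65, SE 1.57). Lrrc75aos1 (0.16, SE 1.23) and Kank4os (-0.00, SE 1.27) each had 1 library at 0, and Appbp2os had 1 in each genotype. Their standard errors exceed their fold changes, so that no difference was detectable at this depth, and their sense genes Lrrc75a and Kank4 were called by DESeq2, the first lower (-0.72, SE 0.23, adjusted p = 0.0255) and the second higher (0.77, SE 0.19, adjusted p = 0.0104).

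Set beside their sense genes, the transcripts were more often the lower member of a pair of unlike sign. In 104 pairs with both genes tested, both were lower in 45, both higher in 16, the transcript alone lower in 34 and the sense gene alone lower in 9. Since 74.5% of the transcripts but 52.0% of the sense genes were negative, unrelated pairs would lean the same way. A part of the pairing in these counts was not tested. The quasi-likelihood test of edgeR called none of the sense genes, with 14 lower (13.7%, against 9.75% of all genes) and 14 higher (13.7%, against 10.2%) at an unadjusted p under 0.05. Of 102 sense genes, DESeq2 called 8 lower (7.84%, against 3.04% of 29430 genes) and 8 higher (7.84%, against 3.72%). The median mean count was 3114 in sense genes, and the 29430 include genes with few counts, so these sets are unlike too. The 8 lower ones had 9 opposite-strand transcripts, of which 8 had negative fold changes. The 8 higher ones had 8, of which 5 were negative. These transcripts include some chosen after their values were seen. Parvaos (-1.08, SE 0.49) stood inside Parva (0.52), an integrin-linked adhesion gene, and Gssos2 (-0.92, SE 0.44) overlapped the start of Gss (0.39), which encodes glutathione synthetase. Slfn5os (-0.72, SE 0.74), Tmem51os1 (-0.32, SE 0.42) and Kank4os made up the rest of the 5. Rab26os (-0.77, SE 0.34) and Atcayos (-2.08, SE 1.18) lay with Rab26 (-1.21), a Rab GTPase of secretory vesicles, and Atcay (-0.62), which encodes the neuronal protein caytaxin. The counts of the transcript per 100 counts of the sense gene did not overlap between genotypes in 15 pairs, lower in cre+ in 13 and higher in 2, a count for which single genes offer no background.

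**Figure D5:**
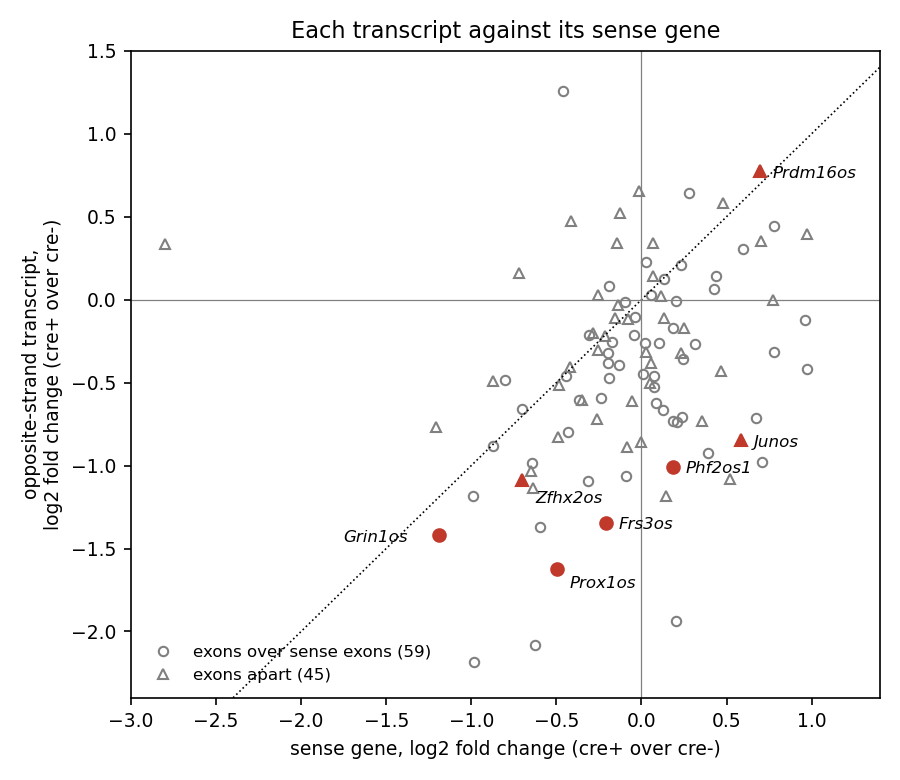
Points set the log2 fold change (cre+ over cre-, edgeR) of each transcript (vertical axis) against that of its sense gene (horizontal axis) in 104 pairs, circles where exons are shared (59) and triangles where they are not (45). The 7 transcripts called by DESeq2 are filled in red and named, and the dotted line marks equal change. Zfhx2os, Grin1os and Prdm16os lie near that line, and Junos and Phf2os1 lie lower right, with the sense gene above 0.

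Negative fold changes were in the majority with and without shared exons. The 59 transcripts with bases over sense exons had a median log2 fold change of -0.46, with 48 negative, beside a median of 0.02 for their sense genes. The 46 with none had a median of -0.26, with 31 negative, beside -0.08. Where the ends overlapped, 11 of 12 were negative (median -0.71), where the transcript lay inside the sense gene 20 of 25 (-0.46), where the starts overlapped 28 of 39 (-0.41), and where the genes stood head to head 12 of 18 (-0.21). The 18 head-to-head pairs had the median nearest 0 of these 4 groups and held the single call in the higher direction.

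For their length the transcripts were mostly scarcer than their sense genes. The median level was 0.921 CPM per 1000 exonic bases for the transcripts and 9.36 for the sense genes, and over 104 pairs the median ratio was 0.139. In 17 pairs the transcript was above its sense gene per exonic base and in 43 it was under 0.1 of it. Next to these stood 7 rows of the table that are described as antisense rather than opposite strand and reach the same mean count. Their log2 fold changes ran from -2.26 (Paupar, SE 0.79) to 0.46 (Airn, SE 0.60), and none was called by edgeR or DESeq2. Dlx1as, opposite the homeobox gene Dlx1, was at 89.1, 90.1 and 142 CPM in cre+ and 151, 133, 167 and 132 CPM in cre- (-0.45, SE 0.18, edgeR adjusted p = 0.217), with cre+ replicate 3 above cre- replicates 2 and 4.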

How the data were processed

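RNA was sequenced from 7 libraries, 3 cre+ and 4 cre-, grouped by genotype as the labels give it. Per the study's methods, the authors used fastp and FastQC for trimming and quality, STAR for alignment to GRCm39, SAMtools to filter alignments and StringTie to quantify genes, and the deposited raw counts are whole numbers per gene. The deposited normalized files hold the count divided by 1 factor per library, a signal that was used only to check that relation. No source used here gives the tool versions, annotation release or strand setting. If strand was not used, reads from overlapping genes on opposite strands cannot be told apart.

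Of 46382 rows, 49 repeats were dropped. The main test was the quasi-likelihood test of edgeR 4.0.16 (filterByExpr, TMM factors, robust fit) in R 4.3.3, fitted to all 21542 genes passing the filter with Benjamini-Hochberg adjustment and a threshold of 0.05. DESeq2 1.42.0, the tool of the study, and limma 3.58.1 (voom) were run as alternatives, with other factors, filters, a vascular covariate, a replicate block and each library left out in turn. The fitting steps were tested on simulated data. The p-values measure the spread between these littermate animals. Fold changes are log2 of cre+ over cre-. Positions are the files', and exons, biotypes and start regions are from GENCODE M39.

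The transcripts, gene lists and tests were chosen with earlier results of these data known. Named in full are transcripts called by DESeq2 or with an unadjusted edgeR p under 0.05, the 8 most abundant by mean CPM, the 4 with the largest change in each direction among those of at least 0.5 CPM, those beside listed forebrain transcription factors, those nearest the threshold, and Il4ra. Others that are named were chosen after their values were seen.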

Additional observations from a re-analysis of the deposited data

Results flagged for a closer look

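Among 29 transcripts named by rule, the 4 cre- libraries were searched for a value far from the other three. In Kank4os, cre- replicate 4 was at 0.473 CPM and stood apart, its gap to the next library taking 0.840 of the range of the group. Chance gives such a gap in about 1 of 20 groups.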

How the results depend on the processing

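The median log2 fold change of the 106 transcripts stayed negative under each alternative run, from -0.50 with library totals to -0.30 with the vascular covariate, and from -0.46 to -0.30 with 1 library left out. In place of the 0 calls of edgeR, DESeq2 made 7. With library totals, DESeq2 called 11 transcripts lower and 0 higher, and 16 sense genes lower, beside 1773 lower and 525 higher of 29432 genes. With the vascular covariate it called 1 lower, 0 higher and 0 sense genes lower, beside 91 lower and 49 higher of 29539 genes. The covariate differed with genotype, so neither lost calls nor kept directions show its part. The 7 transcripts called without it kept their direction, at -1.60 for Grin1os, -1.60 for Zfhx2os, -1.13 for Phf2os1, -0.81 for Junos, -3.08 for Prox1os, -1.17 for Frs3os and 0.76 for Prdm16os. With no filter on low counts DESeq2 called 0 higher, beside 822 of 29430 genes. With 1 library left out, the calls higher ranged from 0 to 2, beside 407 to 1163 over all genes. The sense genes called lower ranged from 2 to 11, beside 348 to 1318 lower over all genes. The transcripts lower without overlap numbered 19 to 29, but smaller groups raise this count in any set of genes. No such count over all genes was made for these fits. The causes were not tested.

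Same-numbered libraries had correlations of deviations of -0.058, -0.022 and 0.115, and unlike-numbered ones had -0.157 to 0.221. The same-numbered values lay within that range, but 7 libraries are too few to exclude a pairing. With the replicate block, DESeq2 called 6 transcripts lower and 0 higher, beside 778 lower and 765 higher of 29539 genes. Among the lower ones Frs3os (adjusted p = 0.203) was lost and Chn1os3 (0.0463) gained.

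Of 435 alternative values for named transcripts, 410 kept their direction and 25 reversed. Library totals gave -0.085 for Oip5os1, -0.085 for Wdr83os and -0.072 for Foxl2os. The vascular covariate gave 0.14 for Brip1os, -0.044 for Wdr83os and -0.40 for Foxl2os. The replicate block gave 0.033 for Brip1os and -0.24 for Lrrc75aos1. limma-voom gave -0.087 for Appbp2os. Kank4os was at 0.0058 with the RLE factors and at 0.0053 in DESeq2. With 1 library left out, values ran from -0.0083 to 0.082 for Oip5os1, -0.10 to 0.044 for Brip1os, -0.078 to 0.11 for Wdr83os, -0.26 to 0.25 for Foxl2os, -0.062 to 0.66 for Otx2os1, -0.10 to 1.23 for Appbp2os, -0.25 to 0.49 for Lrrc75aos1 and -0.89 to 0.58 for Kank4os.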
